A study of Mus musculus with 7 samples.

Results

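Haemoglobin and erythroid transcripts, which mature red cells and their late precursors hold, were followed in the hearts of angiotensin II-treated mice as a gauge of the blood in the tissue. The set comprised 6 listed genes: the α-globin genes Hba-a1 and Hba-a2, the β-globin genes Hbb-bt and Hbb-bs, the haem synthesis enzyme Alas2 and the anion exchanger Slc4a1. Members were found through the RefSeq transcript that the array files give for each probe. A single probe was found for each of 5 of the 6 genes, among 55681 probes in all, and all 5 gave a signal well above background on all 7 arrays. Hbb-bs was not measured here.

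RNA came from the apex of 7 hearts of male C57BL/6 mice and was hybridised to 1-colour Agilent arrays, 1 array per heart. The 3 KO hearts came from mice homozygous for a Mapk14 (p38α) allele with loxP sites around exons 2 and 3, and heterozygous for the tamoxifen-inducible MerCreMer recombinase under the α-MHC promoter, which is active in cardiomyocytes. The 4 control hearts were homozygous for the same floxed allele and carried no recombinase. Both groups received 500 µg hydroxytamoxifen a day for 10 days from an age of 6 weeks, then angiotensin II at 1.5 mg/kg/day from osmotic minipumps for 48 hours, and hearts were taken at 3 months. The design text speaks of 4 KO hearts, and the other one was not analysed here. Since only KO mice carried the recombinase, loss of p38α and presence of the recombinase cannot be told apart, and hearts without angiotensin II were not analysed here. The labels name separate hearts but not litters or days of surgery.

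Haemoglobin is built from pairs of α- and β-globin chains, each holding a haem group. Reticulocytes, the last stage before the mature red cell, still carry globin mRNA after the nucleus is gone, so whole blood left in a tissue brings these transcripts into its RNA. Alas2 is the erythroid form of the first and rate-limiting enzyme of haem synthesis, and Slc4a1 encodes band 3, the chloride-bicarbonate exchanger that anchors the red cell skeleton to the membrane. Heart tissue RNA is bulk RNA, in which fewer cells of a type and less RNA per cell cannot be told apart.

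The sequences before the start sites are shown for the adult globin genes and Alas2, among which Hba-a1, Hbb-bt and Alas2 fell in KO hearts, Hba-a2 did not pass the test and Hbb-bs was not measured here. They are the 120 bases before the annotated start site, 5′ to 3′ on the gene's own strand, from RefSeq on GRCm38.p6. Capitals mark, on either strand, the CACCC box by CACCC, the CCAAT box by CCAAT, the GATA site by GATAA and a TATA-like run by ATATAA, choices made with these sequences in view. All are classical elements of erythroid promoters. The windows lie at chr11:32283552-32283671 (+), chr11:32296372-32296491 (+), chr7:103813924-103814043 (−), chr7:103827929-103828048 (−) and chrX:150547297-150547416 (+).
Hba-a1: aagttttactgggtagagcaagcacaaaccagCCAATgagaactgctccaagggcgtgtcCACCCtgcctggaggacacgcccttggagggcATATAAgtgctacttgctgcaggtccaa
Hba-a2: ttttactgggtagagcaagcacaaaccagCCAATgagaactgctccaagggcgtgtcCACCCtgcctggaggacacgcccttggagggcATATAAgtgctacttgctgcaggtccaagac
Hbb-bt: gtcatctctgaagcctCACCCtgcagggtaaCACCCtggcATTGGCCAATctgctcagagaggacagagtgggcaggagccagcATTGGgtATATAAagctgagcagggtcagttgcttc
Hbb-bs: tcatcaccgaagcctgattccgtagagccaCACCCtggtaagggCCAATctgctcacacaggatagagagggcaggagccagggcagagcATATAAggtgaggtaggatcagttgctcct
Alas2: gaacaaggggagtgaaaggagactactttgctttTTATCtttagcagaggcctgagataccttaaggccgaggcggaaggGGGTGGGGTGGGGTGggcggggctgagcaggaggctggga

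Each of the 4 globin windows held all but the GATA letters. In the α-globin windows the CCAAT box lay before the CACCC box, and in the β-globin windows a CACCC box lay before the first CCAAT box. The ATATAA run began 28 bases before the start site in Hba-a1, 31 in Hba-a2, 29 in Hbb-bt and 30 in Hbb-bs. In Hbb-bt the letters of CCAAT on both strands adjoin each other. The Alas2 window held no CCAAT and no ATATAA in these letters, and held GATAA on the reverse strand 86 bases before the start and CACCC on the reverse strand in 3 places. Of 32851 promoter windows of the same length, 31.7% held CACCC, 21.3% CCAAT, 10.5% GATAA and 4.47% ATATAA. Hba-a1 and Hba-a2 shared an identical run of 297 of 300 bases around their starts, whereas the longest run shared by Hbb-bt and Hbb-bs was 14 bases. Likeness further into the transcripts was not compared. A match of letters is a description of the sequence and was not tested as a binding site.

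Hba-a1, Hbb-bt and Alas2 fell in KO hearts, to between 52.3% and 60.0% of control. In the limma fit over 22341 features, 3 of the 5 measured transcripts passed at an adjusted p under 0.05, all lower. In the same fit 15.0% of all features were called lower, 10.2% higher and 25.2% in either direction, so lower calls were common across the array. Hba-a2 at 71.8% of control and Slc4a1 at 68.2% of control did not pass. The median log2 difference over all features was -0.06. The calls depended on which hearts entered: 0 of the 5 passed without KO 1, KO 2, control 3 or control 4 (3 each at an unadjusted p under 0.05), 1 passed without control 1 or with median centring, and 4 passed without KO 3 or control 2.

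For α-globin, the Hba-a1 probe had processed signals of 106121, 86683 and 126547 in KO hearts 1 to 3, against 189426, 151451, 159861 and 170014 in control hearts 1 to 4. The processed signal is the scanner software's background-subtracted brightness, in arbitrary units. On the scaled log2 level, which is log2 of that signal minus log2 of the array's 75th percentile, Hba-a1 stood at 7.94, 7.68 and 8.32 in KO hearts and at 8.90, 8.33, 8.87 and 8.77 in control hearts. All KO hearts lay below all control hearts, and KO 3 and control 2 nearly touched. The difference was -0.74 ± 0.21 (SE; 95% interval -1.21 to -0.26; 3 KO and 4 control hearts) with an adjusted p of 0.0368 by limma. An exact two-sided permutation test of this transcript alone gave p = 0.0571, where 0.0286 is the smallest that 35 splits allow. The call was lost without KO 1, KO 2, control 1, control 3 or control 4, at differences from -0.72 to -0.59, and in the authors' deposited table, at -0.56 with an adjusted p of 0.0718.

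The Hba-a2 probe had processed signals of 303787, 261640 and 340758 in KO hearts and 416757, 381657, 387275 and 410799 in control hearts. Its log2 levels were 9.46, 9.27 and 9.75 in KO hearts, against 10.03, 9.66, 10.14 and 10.04 in control hearts. The processed signals of the groups did not overlap, but after scaling control 2 fell below KO 3. The difference was -0.48 ± 0.17 (SE; 95% interval -0.88 to -0.08), with an adjusted p of 0.0765 by limma and 0.0857 by the exact permutation test. Without KO 3 or control 2 the adjusted p was 0.0499 and 0.0337, and in the authors' deposited table the difference was -0.22 with an adjusted p of 0.280. Hba-a1 and Hba-a2 are near-identical copies, so signal on either probe may come from both genes.

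For β-globin, Hbb-bt had processed signals of 43709, 40753 and 64519 in KO hearts, against 82818, 87659, 84288 and 100689 in control hearts. Its log2 levels were 6.66, 6.59 and 7.34 in KO hearts and 7.70, 7.54, 7.94 and 8.01 in control hearts. The groups did not overlap on either scale, and KO 3 stood above the other KO hearts. Hbb-bt was 47.7% lower in KO hearts, a log2 difference of -0.93 ± 0.22 (SE; 95% interval -1.44 to -0.43), with an adjusted p of 0.0228 by limma and 0.0286 by the exact permutation test. The call ended when some single hearts were left out. The adjusted p by limma was 0.103 without KO 1, 0.0726 without KO 2, 0.0537 without control 3 and 0.0583 without control 4, with differences between -0.89 and -0.80.

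Probes for 2 further adult β-globin names, Hbb-b1 and Hbb-b2, moved with Hbb-bt. C57BL/6 mice carry Hbb-bs and Hbb-bt at this locus. Which transcripts these probes and the Hbb-bt probe hybridise to was not tested. Hbb-b1 had signals of 3310, 3787 and 5612 in KO hearts and 6576, 8023, 7861 and 9805 in control hearts, a log2 difference of -1.02 ± 0.25 (SE, adjusted p = 0.0259 by limma). Hbb-b2 had signals of 10657, 11495 and 17020 in KO hearts, against 20586, 21455, 22577 and 25937 in control hearts, a difference of -0.89 ± 0.23 (SE, adjusted p = 0.0310 by limma). Neither overlapped between groups, and in both KO 3 was the highest KO heart. Both calls were lost without KO 1, KO 2, control 3 or control 4, with both still at an unadjusted p under 0.05, and 1 of them without control 1. The embryonic globin genes Hbb-y, Hbb-bh1, Hbb-bh2 and Hba-x, and the θ-globin genes Hbq1a and Hbq1b, gave no signal well above background in any heart.

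Alas2 had processed signals of 1808, 1623 and 2697 in KO hearts, against 3507, 2978, 3278 and 3920 in control hearts. The log2 levels were 2.07, 1.94 and 2.76 in KO hearts and 3.14, 2.66, 3.26 and 3.33 in control hearts. Processed signals did not overlap, whereas on the scaled level KO 3 lay just above control 2. The difference was -0.84 ± 0.25 (SE; 95% interval -1.41 to -0.27), with an adjusted p of 0.0424 by limma and 0.0857 by the exact permutation test. Leaving out KO 1, KO 2, control 1, control 3 or control 4 ended the call, with adjusted p from 0.0805 to 0.156.

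Slc4a1 varied from heart to heart and did not pass. Its processed signals were 217, 260 and 150.0 in KO hearts and 214, 259, 461 and 258 in control hearts. On the log2 level it stood at -0.99, -0.70 and -1.40 in KO hearts, against -0.89, -0.86, 0.43 and -0.60 in control hearts. Control 3 stood above all other hearts and the groups overlapped. The difference was -0.55 ± 0.34 (SE; 95% interval -1.34 to 0.23), with an adjusted p of 0.245 by limma and 0.286 by the exact permutation test, and it was -0.25 without control 3. KO 3 was the lowest heart for Slc4a1 and the highest KO heart for the globins and Alas2.

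**Figure D1:**
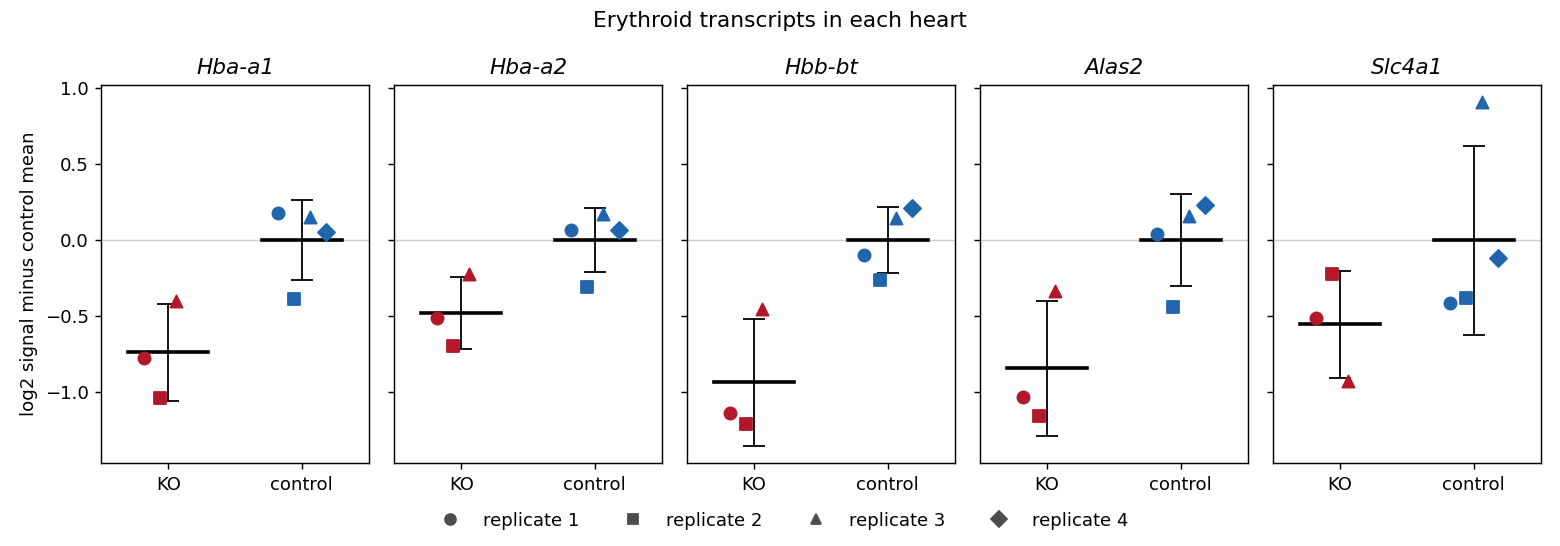
Each panel plots 1 transcript, with the log2 signal of each heart minus the mean of the control hearts on the vertical axis, KO hearts on the left and control hearts on the right. Bars mark group means and whiskers 1 SD (3 KO and 4 control hearts). In Hbb-bt all KO hearts sit below all control hearts, in Hba-a2 and Alas2 KO 3 passes control 2, and in Slc4a1 control 3 stands alone at the top.

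Some hearts held the same place across the member globins and Alas2. On the scaled log2 level, KO 2 was the lowest and KO 3 the highest KO heart in Hba-a1, Hba-a2, Hbb-bt and Alas2. Control 2 was the lowest control heart in each of the 4 on that level. By processed signal, control 1 was the lowest control heart for Hbb-bt. On the scaled level the highest control heart was control 1 for Hba-a1, control 3 for Hba-a2 and control 4 for Hbb-bt and Alas2. For Hbb-b1 and Hbb-b2 the lowest KO heart was KO 1. Averaged over the 5 transcripts after centring each on its mean over hearts, the log2 level was -0.49, -0.56 and -0.16 in KO hearts 1 to 3 and 0.26, -0.05, 0.61 and 0.39 in control hearts 1 to 4. Control 2 also had the brightest array, with a 75th percentile signal of 471, against 397, 342 and 390 for the other control hearts and 432, 423 and 397 for KO hearts. With no scaling between arrays, a setting added after the data were seen, Hba-a1, Hbb-bt and Alas2 differed by -0.67, -0.87 and -0.77 and passed at adjusted p of 0.0366, 0.0226 and 0.0375, while Hba-a2 at -0.41 did not pass (adjusted p = 0.0948). The part of array brightness in these levels was not tested further.

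The size of the difference was then compared between transcripts. Of the 10 pairs of measured members, Hba-a2 differed by less than Hbb-bt, the gap being 0.46 ± 0.12 (SE) on the log2 scale, and Hba-a1 by more than Hba-a2, at -0.26 ± 0.06. Both had the smallest p that the exact permutation test allows, 0.0286, and an adjusted p of 0.143 over the 10 pairs, so neither passed. With only these pairs at the smallest p, none could pass, so this does not show that the differences were alike. The gap between Hbb-bt and Alas2 was -0.09 ± 0.08 (exact permutation p = 0.314, adjusted 0.612). The brightest member spot on an array reached 32.0% to 42.5% of the saturation value in KO hearts and 47.1% to 51.5% in control hearts, and no member spot was saturated. Whether the signal still rises in proportion to RNA at that brightness was not tested.

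**Figure D2:**
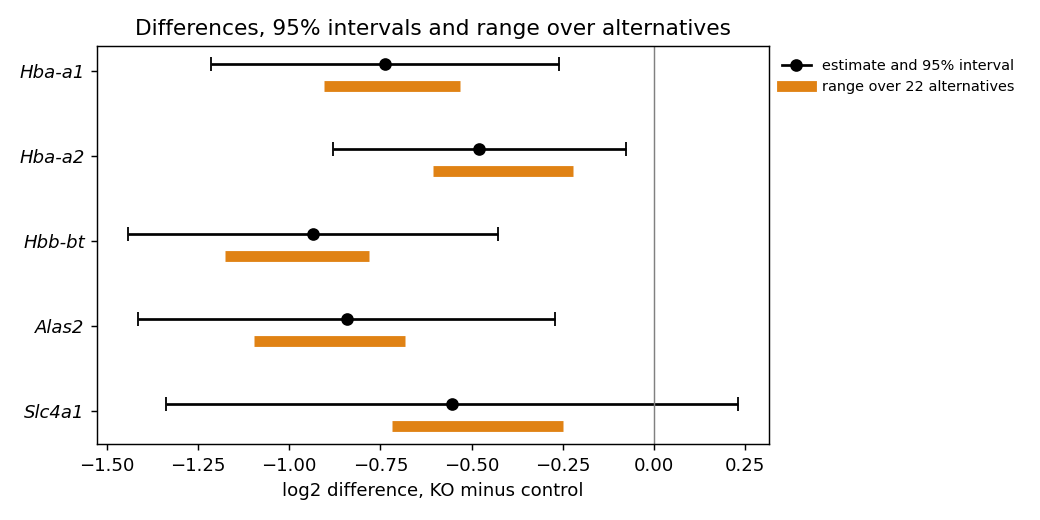
Log2 differences, KO minus control, are plotted on the horizontal axis for the 5 measured transcripts, as the estimate with its 95% interval (black) and as the range over 22 alternative settings (orange). All ranges lie below 0, and the interval of Slc4a1, -1.34 to 0.23, spans it.

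Array position on the slide was a possible batch, since 1 slide held all arrays and 1 scan time covered them. By the first number of that position, KO 1, control 1 and control 2 lay together, and KO 2, KO 3, control 3 and control 4 lay together. Within the first of these sets Hba-a1 differed by -0.67, Hba-a2 by -0.39, Hbb-bt by -0.96, Alas2 by -0.84 and Slc4a1 by -0.11. Within the second they differed by -0.82, -0.58, -1.01, -0.94 and -0.97 in that order of genes. With position as a block Hba-a1, Hbb-bt and Alas2 passed in limma at adjusted p of 0.0299, 0.0103 and 0.0225, while Hba-a2 (0.0536) and Slc4a1 (0.163) did not.

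Against the rest of the array, these differences were in the lower part of the distribution without standing at its edge. A still lower difference was found for 8.32% of all features in the case of Hbb-bt, 10.4% for Alas2, 13.2% for Hba-a1, 20.0% for Slc4a1 and 23.2% for Hba-a2. Groups did not overlap for 2 of the 5 transcripts, Hba-a1 and Hbb-bt, both lower in KO hearts, beside 21.4% of 22302 features without missing values that were lower without overlap.

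**Figure D3:**
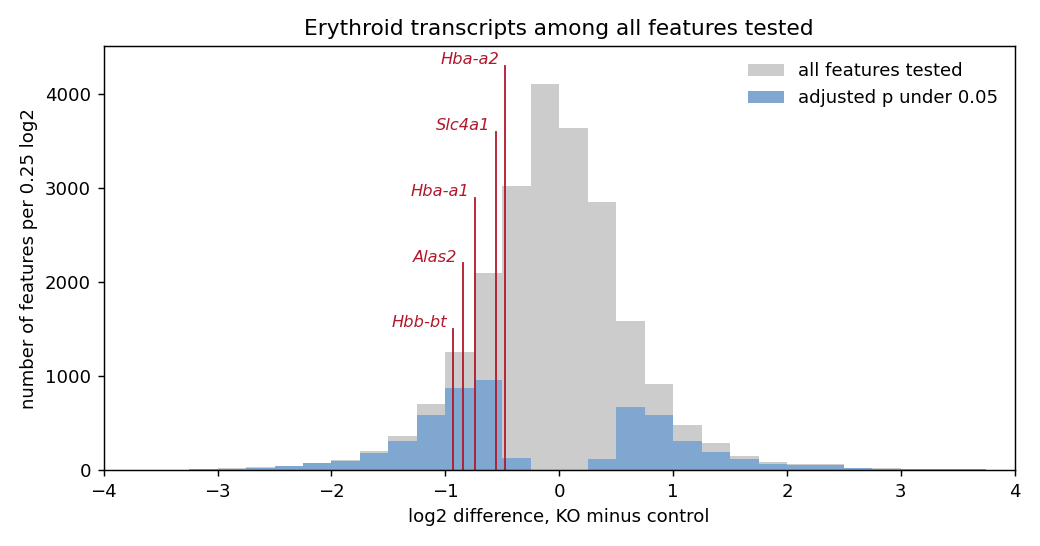
The histogram counts all 22341 features by log2 difference, KO minus control, in steps of 0.25 (grey), and those at an adjusted p under 0.05 (blue). Red lines mark the 5 transcripts, all left of 0. Hbb-bt, Alas2, Hba-a1 and Slc4a1 lie between -1 and -0.5, where most lower calls lie, and Hba-a2 lies in the next step up, where 127 of 3027 features were called.

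Other enzymes of haem synthesis, which most tissues need for mitochondrial and other haem proteins, were also lower. Of 8 genes on that list, all measured, 4 fell, 0 rose (limma; 0 higher at an unadjusted p under 0.05) and 4 did not pass, with a median log2 difference of -0.56. Over all features 15.0% were called lower and 10.2% higher, shares that stand beside each list below as well. Alas1, the form of the first enzyme used outside the erythroid line, fell by 1.14 on the log2 scale (SE 0.20, adjusted p = 0.0144). Uros (-1.07 ± 0.22, adjusted p = 0.0171), Alad (-0.90 ± 0.24, adjusted p = 0.0314) and Urod (-0.58 ± 0.17, adjusted p = 0.0397), enzymes of later steps, fell as well. Fewer passed when some single hearts were left out: 0 without KO 1 or KO 2 (4 and 5 at an unadjusted p under 0.05) and 2 without control 3 or control 4. The highest count with 1 heart left out was 5.

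Of 18 genes of the red cell membrane and skeleton, 12 were measured, 4 fell, 0 rose (limma; 0 higher at an unadjusted p under 0.05) and 8 did not pass, with a median of -0.58. Beside them, 15.0% of all features were called lower. Ank1, an ankyrin that links band 3 to spectrin and is also used in muscle, fell by 1.69 (SE 0.28, adjusted p = 0.0126). Tmod1, which caps actin filaments in red cells and in heart muscle, fell by 0.94 (SE 0.16, adjusted p = 0.0134). Gypc, glycophorin C, fell by 0.59 (SE 0.17, adjusted p = 0.0411). Sptb (-0.40, adjusted p = 0.178) and Rhd (-0.96, adjusted p = 0.0694) did not pass. Rhag, Add2 and Cldn13 gave no signal well above background in any heart. The count was 0 without KO 1 or KO 2 (4 and 7 at an unadjusted p under 0.05), 2 without control 1, control 3 or control 4, and 8 with slide position as a block.

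Among 20 late erythroid and reticulocyte genes, 17 were measured, 7 fell, 0 rose (limma; 0 higher at an unadjusted p under 0.05) and 10 did not pass, with a median of -0.51 that is the same with Trim10, which passed the filter only through the control hearts, at its bound. The call of Trim10 is thus no separate support. With features limited to those well above background on all 7 arrays, 6 genes of this list fell. The share called lower over all features was 15.0%. Car2, carbonic anhydrase 2, fell by 1.41 (SE 0.18, adjusted p = 0.0109). Bpgm, which makes the 2,3-bisphosphoglycerate that lowers oxygen affinity, was at -0.50 (adjusted p = 0.0904), and Car1, the red cell carbonic anhydrase 1, at 0.07 (adjusted p = 0.798). The count was 0 without KO 1 (8 at an unadjusted p under 0.05), 2 without KO 2 or control 4, and 3 without control 1 or control 3.

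Several erythroid transcription factors had no signal well above background. Of 10 listed, Gata1, Klf1, Gfi1b and Myb reached it in no heart, and of the 6 measured 1 rose and 1 fell. Beside these, 10.2% of all features were called higher and 15.0% lower. Nfe2, which drives globin genes in erythroid cells and platelet genes in megakaryocytes, was well above background in 3 of 3 KO hearts and 0 of 4 control hearts, at least 2.55-fold higher in KO hearts. It passed the filter on dim probes only through the KO hearts, so its call is no separate support, and with features limited to those well above background on all 7 arrays 0 of these factors rose (limma; 0 higher at an unadjusted p under 0.05). The bound sets its mean in KO hearts against, per control array, the higher of its own signal and the lowest signal well above background. Zfpm1 (FOG-1, the GATA1 cofactor) fell by 0.54 (SE 0.16, adjusted p = 0.0411), a call lost without KO 1, KO 2, control 1, control 3 or control 4 and with median centring. It was also lost with the mean over a gene's kept probes, with no filter on dim probes and with replicate number as a block. Tal1 (-0.10) and Lmo2 (-0.53, adjusted p = 0.0616) did not pass.

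In the list of haem and haemoglobin clearance and iron storage, 14 of 15 genes were measured, 3 rose, 3 fell and 8 did not pass. Over all features 15.0% were called lower and 10.2% higher. Hamp, among the genes that rose, passed the filter only through the KO hearts, so its call is no separate support. With features limited to those well above background on all 7 arrays, 4 genes of this list rose and 2 fell. Hmox1, the inducible haem oxygenase, rose by 2.12 (SE 0.50, adjusted p = 0.0236), with log2 levels of 4.64 to 5.26 in KO hearts and 1.40 to 3.68 in control hearts. Hpx, which binds free haem in plasma, was not well above background in any KO heart and was at least 5.35-fold lower there; it passed the filter only through the control hearts. Hp, haptoglobin, which binds free haemoglobin, was at 1.48 ± 0.48 (adjusted p = 0.0545), and Cd163, the macrophage receptor for that complex, at 0.63 ± 0.25 (adjusted p = 0.0892). Without KO 1 or KO 2 the counts were 0 higher (5 and 4 at an unadjusted p under 0.05) and 1 lower, without control 4 they were 1 higher and 1 lower, and without control 1 or control 3 they were 4 higher and 1 lower. The count higher was 5 with normexp or raw signals, median centring, the authors' deposited table, trend and robust variance, or array weights.

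In the lists of other blood cells (platelets, neutrophils, monocytes, T and NK cells, B cells) 0 genes fell (limma; 0 lower at an unadjusted p under 0.05) and some rose. For all of these lists, the shares over all features were 15.0% called lower and 10.2% higher. Genes that reached the fit only through the KO hearts had to differ; with features limited to those well above background on all 7 arrays, 3 platelet, 2 neutrophil and 2 monocyte markers rose, and 0 T and NK cell or B cell markers (1 each at an unadjusted p under 0.05). Of 12 platelet markers 8 were measured and 3 rose. Ppbp rose by 1.96 (SE 0.24, adjusted p = 0.0107), Pf4, platelet factor 4, by 1.33 (SE 0.28, adjusted p = 0.0179) and Clec1b, the podoplanin receptor, by 1.09 (SE 0.32, adjusted p = 0.0407). Itga2b (0.60) and Gp9 (0.36) did not pass, and Gp1ba, Gp5 and Gp6 had no signal well above background in any heart. The summed platelet level, in multiples of the array's 75th percentile signal, was 55.6 to 70.3 in KO hearts and 18.6 to 37.3 in control hearts. The brightest genes of a list weigh most in such a sum. Here most of it came from Pf4, at a mean log2 level of 5.91 in KO hearts and 4.57 in control hearts. The count was 0 without KO 1 (3 at an unadjusted p under 0.05), 1 without KO 2 and 5 without control 3.

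Of 10 neutrophil markers 6 were measured and 4 rose, of which 2, Cxcr2 and Mmp8, passed the filter only through the KO hearts, with 0 passing without KO 1 or KO 2 (4 each at an unadjusted p under 0.05). S100a8 and S100a9, the calprotectin subunits, rose by 3.33 (SE 0.71, adjusted p = 0.0187) and 3.14 (SE 0.68, adjusted p = 0.0195). The chemokine receptor Cxcr2 was at least 4.69-fold higher and the collagenase Mmp8 at least 2.60-fold higher in KO hearts, both well above background in 0 of 4 control hearts. Camp was at 0.25 and did not pass, and the granule genes Ngp and Ltf had no signal well above background in any heart. The list mean of centred log2 levels was 1.70, 1.95 and -0.03 in KO hearts and -0.96, -0.44, -1.06 and -1.16 in control hearts. Cxcr2 and Mmp8 are in this mean, so part of its gap between the groups follows from the filter. The summed level was 101 to 177 in KO hearts and 114 to 177 in control hearts. Most of that sum came from Csf3r, which did not pass (-0.23). Its mean log2 level was 6.82 in KO hearts and 7.05 in control hearts, against 3.37 and 0.23 for S100a9. KO 3 had both the lowest neutrophil mean and the highest globin levels of the KO hearts.

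Of 8 monocyte markers 7 were measured and 2 rose, Plac8 by 2.64 (SE 0.64, adjusted p = 0.0249) and Cd14, the endotoxin co-receptor, by 1.43 (SE 0.24, adjusted p = 0.0126). Their count was 0 without KO 1 or KO 2 (2 and 3 at an unadjusted p under 0.05) and 1 without KO 3, control 3 or control 4. Ccr2 (2.28, adjusted p = 0.0698), Spn (0.48) and Cx3cr1 (-0.47) did not pass, and the summed level was 41.0 to 76.1 in KO hearts, against 30.2 to 49.7 in control hearts. Csf1r, which did not pass, was the brightest gene in that sum, at a mean log2 level of 5.29 in KO hearts and 5.06 in control hearts. Of 10 T and NK cell markers 5 were measured and Il7r, the interleukin-7 receptor, was at least 1.96-fold higher in KO hearts, through which alone it passed the filter, while Cd3e (-0.09), Lck (0.55) and Cd4 (-0.17) did not pass. Cd3g, Cd8a and Ncr1 had no signal well above background in any heart, and the summed level was 3.29 to 3.59 in KO hearts and 3.19 to 3.91 in control hearts. Of 8 B cell markers 3 were measured and 0 passed (limma; 1 higher at an unadjusted p under 0.05, 1 called without control 2). Cd79a and Pax5 had no signal well above background in any heart, and the summed level was 0.877 to 1.08 in KO hearts and 0.922 to 1.22 in control hearts.

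Some markers of the tissue itself were also lower. All 10 cardiomyocyte markers were measured, 4 fell and 0 rose (limma; 0 higher at an unadjusted p under 0.05), and the largest fall was in Pln. Over all features 15.0% were called lower and 10.2% higher. Pln, phospholamban, fell by 2.34 (SE 0.39, adjusted p = 0.0127) and Tnni3, cardiac troponin I, fell by 1.19. The cardiac ryanodine receptor Ryr2 fell by 0.77 and the giant sarcomere protein Ttn by 0.80, while Myh6 (-0.30, adjusted p = 0.176), Tnnt2 (-0.46, adjusted p = 0.0685) and Actc1 (-0.37, adjusted p = 0.110) did not pass. Their summed level was 5055 to 5774 in KO hearts and 5940 to 8703 in control hearts, and 0 passed without KO 1 or KO 2 (4 and 6 at an unadjusted p under 0.05). Of 10 endothelial markers, all measured, 1 fell, the VEGF receptor Kdr by 1.19 (SE 0.19, adjusted p = 0.0123), a call lost without KO 1 or KO 2, and 3 fell without control 2. That count was no larger than the 15.0% of all features called lower would give. Pecam1 (-0.21), Cdh5 (-0.09), Tek (-0.71, adjusted p = 0.0652) and Tie1 (-0.68, adjusted p = 0.0734) did not pass, and the summed level was 115 to 152 in KO hearts and 134 to 196 in control hearts. The part of these shifts in the erythroid result was not tested.

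**Figure D4:**
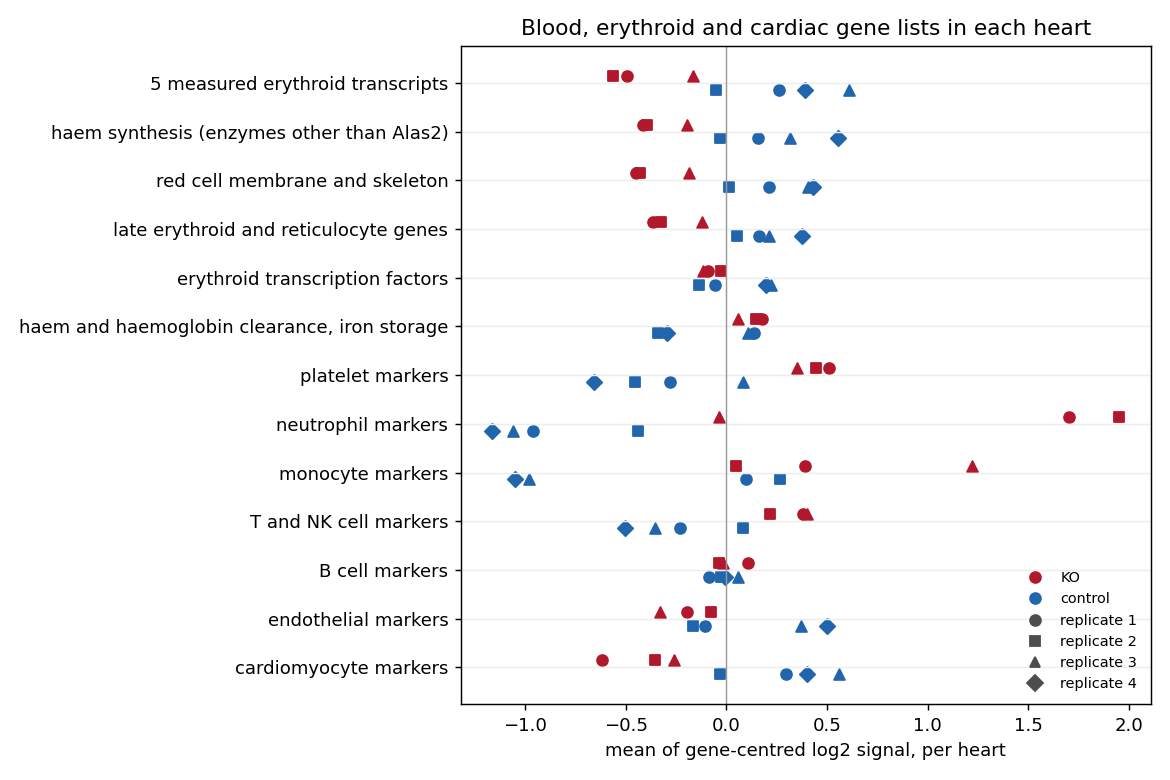
For each gene list, the mean of gene-centred log2 signals is plotted per heart on the horizontal axis, KO hearts (red) above control hearts (blue) in each row, with symbols for the replicate. Haem synthesis, red cell membrane, late erythroid and cardiomyocyte lists lie lower in all KO hearts than in all control hearts, as the 5 erythroid transcripts do, and platelet, neutrophil and T and NK cell lists lie higher. Cxcr2 and Mmp8 in the neutrophil list and Il7r in the T and NK cell list passed the filter only through the KO hearts. Those genes had to be higher there, so part of the gap in these 2 lists follows from the filter. In the T and NK cell list Il7r differed by 2.36, and the other measured genes by -0.17 to 0.55. Whether that list lies higher in KO hearts without Il7r was not tested. Trim10 in the late erythroid list passed only through the control hearts, so it had to be lower in KO hearts.

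Many named genes followed the mean of the 5 transcripts across the 7 hearts. Of 13084 named genes, 1671 had a Pearson r over 0.9 with it, over hearts that share group, array scaling and position, so a high r was common. The 10 highest were Urah, Hcfc1r1, Echdc2, Dtx3, Herpud1, Mmut, Ttll1, Serpine2, Phyhd1 and Asgr2, from 0.995 to 0.990. Among them Urah, which acts in urate breakdown, differed by -2.04 ± 0.51 (SE), Herpud1, a protein of endoplasmic reticulum-associated degradation, by -1.27 ± 0.26 and Mmut, the mitochondrial methylmalonyl-CoA mutase, by -1.17 ± 0.26. Hbb-b2 had r = 0.963 and rank 292, and Hbb-b1 r = 0.936 and rank 909.

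The labels were checked on 2 genes. The Mapk14 probe used in the fit was at 0.22 in KO hearts relative to control (adjusted p = 0.202 by limma). Another Mapk14 probe, also well above background in every heart, was at 0.18 (exact permutation p = 0.143). Neither was lower in KO hearts, and whether either lies in the deleted exons was not tested. Of 3 Esr1 probes, for the gene from which the MerCreMer hormone-binding domain is derived, 1 was well above background in 3 of 3 KO hearts and 0 of 4 control hearts. The other 2 Esr1 probes, at -0.18 and -0.14, were above it in no heart.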

How the data were processed

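Total RNA of 7 heart apices, 100 ng each, was labelled with Cy3 and hybridised to 1-colour Agilent arrays, per the labels. The authors read the arrays with Agilent Feature Extraction 11.0.1.1, per the file headers, and the deposited files give an intensity for each of 62976 spots, 3671 of them controls. The array design carries mm9, per the file headers; promoter windows are of GRCm38.p6 and no other coordinates are given. The authors' deposited value table is in log2, and nothing states its scale, centring or direction. Against the scanner values its columns had r of 0.986 to 0.998 and slopes of 0.972 to 1.00 over 23547 probes, and 100% of rows had a median of 0, so rows were centred and higher means more signal; the scaling target is unknown. Its column medians were 0, except -0.00212 for KO 2 and 0.00790 for control 4.

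Processed signals were taken as log2 minus the 75th percentile of each array's gene spots. Outlier spots were left out, saturated spots kept and spots of 1 probe averaged. Replicate spots of a probe had a median coefficient of variation from 4.52% to 5.38%. Probes well above background on 3 or more arrays of a group were kept, 26571 of 55681; 46.0% to 49.6% of probes per array were well above background. Through RefSeq accessions 28026 probes matched 1 symbol, 0 several and 27655 none. The brightest kept probe stood for a gene, which left 22341 features, 13696 of them named. KO and control were compared with limma 3.58.1 in R 4.3.3 (lmFit, eBayes, no covariates, Benjamini-Hochberg over all features, threshold 0.05), with the exact two-sided permutation test beside it. The number of arrays limits the precision. P-values measure the spread between hearts, which the labels do not tie to litters or days.

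On simulated arrays of 22341 features, 50 genes were changed by each of 0.5, 1, 2 and 3 (log2). The test found 2%, 42%, 84% and 96% of them, and 6 of its 118 calls were false. Far fewer features were changed there than the 5640 called in the hearts, and they varied independently. The adjusted threshold thus fell at another raw p, and these rates need not hold for the real comparison. Named genes were every member, the first 4 measured genes of each of 13 lists (147 genes), passing genes where 5 or fewer of a list passed, the 10 genes most like the member mean, and Mapk14 and Esr1; a few such genes are counted but not reported by name here. Members, lists and tests were chosen with earlier results of these data known. Of the 6 members, 5 matched a promoter entry.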

Additional observations from a re-analysis of the deposited data

Results flagged for a closer look

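Single hearts stood far from the rest of their group for 2 of the 64 named genes screened, and chance alone marks about 1 in 20. For the platelet marker Clec1b, control 3 lay at a log2 level of -2.02 and the other control hearts at -3.20 to -3.00, a gap of 0.832 of the group's range, past Dixon's critical value for 4 hearts. For Tmod1, the actin capping protein, control 1 lay at 3.85 and the other control hearts at 3.66 to 3.69, a gap of 0.851 of the range. Groups of 3 hearts were not screened.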

How the results depend on the processing

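Each member's difference kept its negative sign under all 22 alternatives, at -0.91 to -0.53 for Hba-a1, -0.61 to -0.22 for Hba-a2, -1.17 to -0.78 for Hbb-bt, -1.10 to -0.68 for Alas2 and -0.72 to -0.25 for Slc4a1, which passed under none. Which of them passed varied. Some settings changed the number of hearts or features, and the cause was not tested. Quantile normalization left Hba-a1 at -0.53 (adjusted p = 0.0822), and the authors' deposited table at -0.56 (0.0718). Median centring left 1 member passing, with Hba-a1 at -0.65 (0.0553) and Alas2 at -0.75 (0.0550). With no filter on dim probes, which tests more features, 1415 features and 0 members passed (4 at an unadjusted p under 0.05), Hba-a1, Hbb-bt and Alas2 being at -0.74, -0.93 and -0.84 (0.102, 0.0678 and 0.112). Trend and robust variance, and array weights, put Hba-a2 past the threshold at -0.48 (0.0428) and -0.52 (0.00873), and array weights called 11997 features. Deviations of hearts with the same number from their group means had correlations of 0.184, -0.223 and -0.197. With so few hearts per group these values cannot tell whether such hearts shared a litter or day of surgery. With that replicate number as a block, in which control 4 has no partner, 9 features and 0 members passed (4 at an unadjusted p under 0.05). Hba-a1 was then at -0.72 (0.0836), Hbb-bt at -0.86 (0.0697) and Alas2 at -0.76 (0.0878). Leaving out 1 heart gave 83 to 7099 features against 5640 (83 without KO 1, 351 without KO 2, 2906 without control 3, 2349 without control 4, 3538 without control 1) and 0 to 4 members. There were 0 members without KO 1, KO 2, control 3 or control 4, with 3 at an unadjusted p under 0.05 each, 1 without control 1 and 4 without KO 3 or control 2. Differences then ranged from -0.91 to -0.59 for Hba-a1, -0.61 to -0.37 for Hba-a2, -1.17 to -0.80 for Hbb-bt, -1.10 to -0.68 for Alas2 and -0.72 to -0.25 for Slc4a1. All 5 member probes were well above background on every array; the SE of Slc4a1 was 0.34, and 0.25 with normexp and 0.26 with raw signals.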
